A study of Mus musculus with 89 samples.

Results

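Exon skipping events of 10 mouse genes for RNA-binding proteins were examined in nucleus accumbens: Hnrnpa1, Hnrnpa2b1, Hnrnpc, Hnrnpd, Hnrnpdl, Hnrnph1, Hnrnph2, Hnrnpl, Hnrnpll and Matr3. The genes were chosen by name, with earlier results of these data known. Every event listed for them was taken from the 2 deposited tables of exon skipping. In the first table, from RNA libraries after delivery of a transgene by herpes simplex virus (the HSV table), 33 of 27900 events, in 9 of 9542 genes, belonged to them; Hnrnpc had no event there. In the second, from libraries with dCas9-SET2, a catalytically dead Cas9 fused to a histone methyltransferase (the dCas9-SET2 table), they held 24 of 5608 events, and each of the 10 genes was among its 3434.

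The tissue was the nucleus accumbens, a reward region of the ventral forebrain, of wild-type C57BL/6 mice aged 8 weeks. The HSV groups were HSV-Set2, HSV-R195G and HSV-GFP, with 3 RNA libraries each, and the dCas9 groups were dCas9-SET2-sgRNA-SRSF11 and the non-targeting dCas9-SET2-sgRNA-NT, with 16 runs under 4 sample names each. Both dCas9 groups therefore carry the same fusion protein and differ in the guide RNA. The tables join the counts of several libraries in a cell without names, as a 3-library set and a 2-library set in the HSV table and as a second and a first set of 16 runs in the dCas9-SET2 table. No set could be tied to a treatment, so no value below is the effect of a named treatment, and directions are those between sets. Whether libraries come from separate animals is not stated for them. A p-value therefore rests on spread between libraries, which may be technical, and for inclusion in the HSV table that spread is pooled over events.

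Heterogeneous nuclear ribonucleoproteins (hnRNPs) coat newly made RNA in the nucleus and, by binding near exons, help decide which exons are kept. Many of them also act on their own transcripts, often through exons whose inclusion or skipping shifts the reading frame and exposes the RNA to decay. Matr3 encodes matrin 3, a nuclear matrix protein with RNA recognition motifs and zinc fingers that represses exons, and variants of the human gene occur in motor neuron disease. Set2 enzymes place the histone mark H3K36me3 on transcribed gene bodies, where it has been linked to exon choice.

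Summed over the listed events, the HSV libraries held 7428974 to 8341849 reads in the 3-library set, against 8366275 and 8638249 in the 2-library set. Reads shared by overlapping events count more than once in such totals. The totals also depend on the number of events, 27900 in the HSV table and 5608 in the dCas9-SET2 table. Reads per run of the dCas9-SET2 table were far fewer, 56946 to 84870 in the second set and 79799 to 106251 in the first set. In both of its sets the runs at positions 4 and 8 were identical at every event, so they were counted once here, leaving 15 distinct runs per set. The HSV sets also differed in markers: summed coverage of 17 interferon response genes, of 24 listed, was 4554 to 5001 CPM (reads scaled to a common library total) in the 3-library set, against 700.4 and 827 CPM in the 2-library set, and each of the 17 passed the test as higher. Of 12 medium spiny neuron markers measured, of 15 listed, 11 were lower, with sums of 4435 to 4699 CPM against 11312 and 13843 CPM. Microglial markers, 4 of 9 higher, summed to 2158 to 2318 CPM in the 3-library set and to 1016 and 2344 CPM in the 2-library set. Higher coverage was also called for 6 of 8 oligodendrocyte markers, 2 of 5 astrocyte markers and 3 of 5 general neuron markers, and the other 2 neuron markers were lower; no measured marker was at 0 and no vascular marker was measured. The part of these differences in the results below was not tested.

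In the HSV table, exons of 6 genes differed in inclusion between the sets. Exons of Matr3, Hnrnph1 and Hnrnpdl were higher in the 3-library set and exons of Hnrnpa2b1, Hnrnph2 and Hnrnpa1 were lower, by 0.045 to 0.137 in inclusion level (PSI, the share of transcripts that keep the exon, corrected for the lengths of both forms). The calls come from limma on the logit of inclusion weighted by reads, with Benjamini-Hochberg adjustment over 7754 events and a threshold of 0.05. They were 6 of the 17 member events with enough reads, in 8 genes, where 3.69% of all tested events were called, 1.69% as higher and 2.00% as lower. The member events were deeper than others, with a median of 783 reads per library against 129 over all tested events. The median absolute difference was 0.0675 over the called member events and 0.159 over all called events. The fit assumes 1 spread for all events after weighting, so an event's own spread between its libraries does not enter its p-value. Without weights limma called 0 events in the whole table, with 790 at unadjusted p below 0.05, and the adjusted p of the 6 lay between 0.5003 and 0.820.

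The 122-nt exon of Matr3 was included at 0.917, 0.891 and 0.901 in the 3-library set, against 0.827 and 0.815 in the 2-library set. Skipping reads numbered 65, 78 and 68 in the 3-library set, against 162 and 160 in the 2-library set. The sets did not overlap, and both libraries of the 2-library set skipped the exon more often than any of the other 3. The difference was 0.70 ± 0.13 on the logit scale (SE; adjusted p = 1.43e-05, limma, n = 3 and 2). It was the one member event still called whichever of the 5 libraries was left out, with adjusted p of at most 0.00221 in limma.

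Hnrnpa2b1 encodes the hnRNP A2 and B1 proteins, which package nascent RNA and, in neural cells, take part in RNA transport. Its 120-nt exon (chr6:51414427-51414546 as the table gives it, minus strand), whose length keeps the reading frame, was included at 0.924, 0.917 and 0.916 in the 3-library set, against 0.974 and 0.954 in the 2-library set. Skipping reads were 91, 97 and 91 in the 3-library set, against 40 and 76 in the 2-library set. All 3 libraries of the 3-library set therefore skipped the exon more often than either of the other pair, which differed between themselves. The logit difference was -0.80 ± 0.16 (SE; adjusted p = 5.61e-05, limma); with library 1 of the 2-library set omitted it was not called (adjusted p = 0.0715).

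Hnrnph1 and Hnrnph2 are close paralogs whose proteins bind runs of G; the sources used here do not say how reads that fit both were counted. The 50-nt exon of Hnrnph1 (chr11:50198643-50198692, plus strand) was included at 0.938, 0.926 and 0.952 in the 3-library set, against 0.878 and 0.876 in the 2-library set. The 45-nt exon of Hnrnph2 (chrX:131137457-131137501, plus strand) stood at 0.653, 0.626 and 0.685 in the 3-library set, against 0.833 and 0.751 in the 2-library set. Neither pair of sets overlapped, and these exons moved in opposite directions. Whether they are counterparts in the paralogs was not examined. On the logit scale the differences were 0.74 ± 0.19 for Hnrnph1 (SE; adjusted p = 0.00415, limma) and -0.71 ± 0.15 for Hnrnph2 (SE; adjusted p = 0.000132, limma). The length of the Hnrnph2 exon is divisible by 3 and that of the Hnrnph1 exon is not. Whether either exon lies in coding sequence was not examined, so no effect on the reading frame follows. Hnrnph1 lost its call with library 3 of the 3-library set omitted (adjusted p = 0.0546), and Hnrnph2 with library 1 of the 2-library set omitted (adjusted p = 0.252).

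Hnrnpa1 encodes a repressor of exons that often opposes SR proteins; it has processed pseudogenes whose reads may mix with its own. Its 159-nt exon (chr15:103073353-103073511, plus strand) was the less used form, at 0.199, 0.195 and 0.191 in the 3-library set, against 0.263 and 0.226 in the 2-library set. The 3-library values lay within 0.01 of each other and below both others, with a logit difference of -0.29 ± 0.08 (SE; adjusted p = 0.00837, limma). In the authors' deposited table its FDR was 0.102, so it was not called there. The other 5 were, which makes 5 of the 33 member events and 5 of the 17 tested, where 4.87% of all events and 12.6% of all tested events had such an FDR. The call also ended with library 1 of the 2-library set omitted (adjusted p = 0.502), and the adjusted p was 0.05002, just above the threshold, with library 3 of the 3-library set omitted.

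Hnrnpdl, a relative of Hnrnpd, gave the least stable of the 6. Its 105-nt exon (chr5:100464654-100464758, minus strand) was included at 0.291, 0.278 and 0.209 in the 3-library set, against 0.148 and 0.224 in the 2-library set. These ranges overlap, and the logit difference of 0.45 ± 0.14 (SE; adjusted p = 0.0384, limma) was lost with library 1 of the 2-library set omitted (adjusted p = 0.743), and also with library 1 (0.303) or library 2 (0.158) of the other set omitted. With a spread trended on reads its adjusted p was 0.0515.

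**Figure D1:**
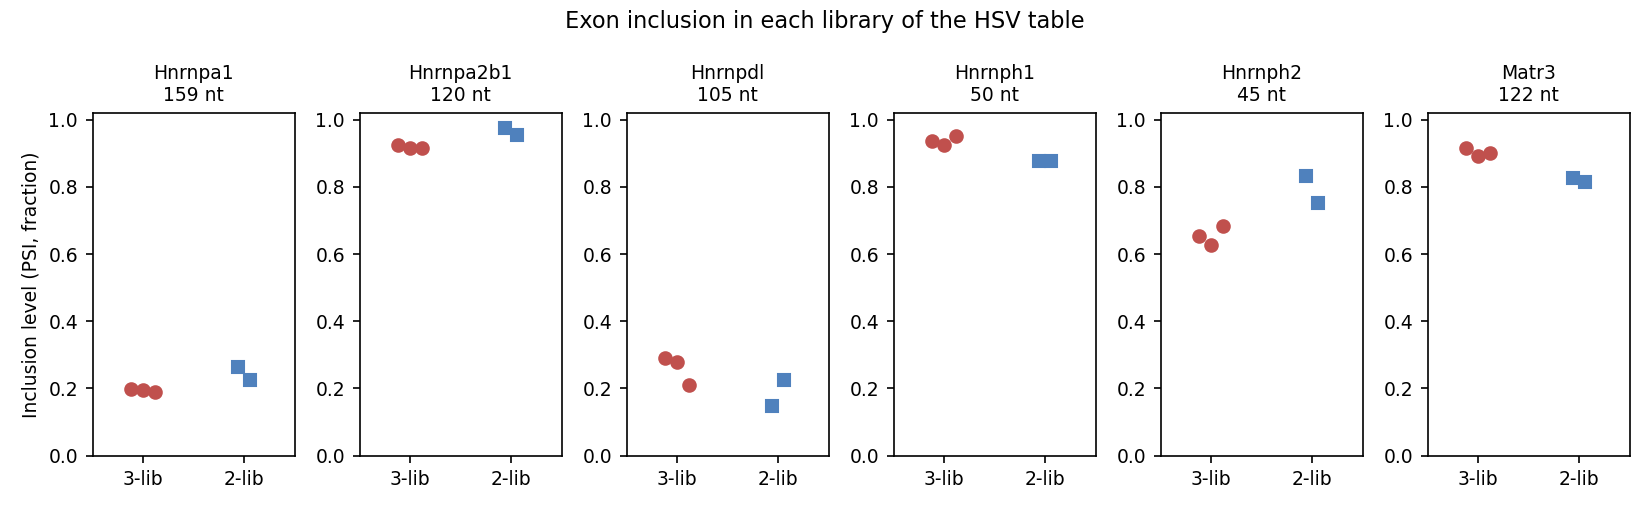
Inclusion level (PSI, as a fraction) of the 6 called member exons in each library of the HSV table; each point is 1 library, circles the 3-library set and squares the 2-library set. The sets do not overlap for 5 of the 6 exons, and for Hnrnpdl the third circle, at 0.209, lies below the upper square, at 0.224.

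Exons whose sets did not overlap were 5 of the 17 tested member events, and 27.8% of all tested events had such sets, so this share is near the background. Of the 6 called exons 4 had a length divisible by 3, and 8 of the 17 tested did; over the table the shares were 80.1% of called and 52.8% of tested events. The median PSI difference over the 17 was -0.00417, against -0.00133 over all tested events.

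Hnrnpd, also called AUF1, encodes proteins that bind AU-rich mRNA and promote its decay, and its 57-nt and 147-nt exons are known to make the protein isoforms. Neither was called, and the ranges of the sets overlap for both. Inclusion of the 57-nt exon was 0.794, 0.803 and 0.792 in the 3-library set, against 0.820 and 0.781 in the 2-library set (limma, adjusted p = 0.964). The 147-nt exon gave 0.740, 0.716 and 0.709 in the 3-library set, against 0.716 and 0.751 in the 2-library set (limma, adjusted p = 0.868). Both sets thus kept each exon in most transcripts, at nearly the same level. An exon of 107 nt of the same gene was rarely used, at 0.024, 0.029 and 0.019 against 0.010 and 0.019 (limma, adjusted p = 0.554), and a 71-nt form that overlaps it and shares its skipping reads at 0.007 to 0.009 against 0.008 and 0.010 (limma, adjusted p = 0.944).

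Hnrnpl encodes a protein that binds CA repeats and regulates its own transcript through a poison exon. Its 497-nt exon was included at 0.673, 0.698 and 0.804 in the 3-library set, against 0.749 and 0.824 in the 2-library set (limma, adjusted p = 0.639). The ranges of the sets overlap. A 70-nt exon of the gene was mostly skipped, at 0.064, 0.080 and 0.057 in the 3-library set, against 0.061 and 0.067 in the 2-library set (limma, adjusted p = 0.920).

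Among the other tested exons, the 171-nt exon of Hnrnpdl was at 0.905, 0.939 and 0.929 in the 3-library set, against 0.934 and 0.971 in the 2-library set (limma, adjusted p = 0.543). The 139-nt exon of Hnrnph1 was at 0.967, 0.967 and 0.968, against 0.969 and 0.950, and its 60-nt exon at 0.991 to 1, against 0.999 and 1. Matr3 kept its 1093-nt exon at 0.962, 0.946 and 0.932 in the 3-library set, against 0.967 and 0.941 in the 2-library set, and its 223-nt exon at 0.983 to 1 against 0.988 and 0.997. These exons were near full inclusion in every library. The 11 tested events that were not called had adjusted p between 0.543 and 0.964 and PSI differences of at most 0.0615 in size.

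The other 16 member events, in 8 genes, did not reach the 10 reads of the rarer form required for the test, although they were deep, with means of 77.4 to 4787 reads per library. Each had at most 9 skipping reads over the 5 libraries, and the lowest inclusion level in any library was 0.956. All 3 events of Hnrnpll, a paralog of Hnrnpl known for its action on Ptprc (CD45) exons in lymphocytes, were of this kind. Within their own events these exons were kept in nearly every read in both sets. This does not hold over all transcripts of a gene. The 163-nt exon of Hnrnpa1, at 0.990 to 1, shares its start with the 159-nt exon. That exon, in its own event, was at 0.191 to 0.263.

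For each called member exon, the tested events of other genes with the most similar inclusion over the 5 libraries were sought by root mean square (rms) difference in PSI. The nearest to the Matr3 exon were in Adcy9, Ap4s1 and Ano8, and to the Hnrnpa2b1 exon in Ecsit, Ppif and Poldip3. Hnrnph1 was nearest to Snf8, Tmem209 and Memo1, and Hnrnph2 to Ptk2, Cep170 and Nrcam. The Hnrnpa1 exon had Pcdh9, Rap1gds1 and Ercc8 as neighbours, and that of Hnrnpdl Gas5, Pex5 and Tmem234. The rms differences lay between 0.0103 for Ecsit and 0.0331 for Tmem234, and none of these 18 events was called. The sets of Rap1gds1 and Tmem234 overlapped, while those of every other neighbour did not. The neighbours were picked for levels close to those of the member exons, so this largely follows from the choice. The test weights events by reads, and the reads of these events were not compared with those of the members. The calls therefore do not set the inclusion of the member exons apart from that of these events.

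A list of 46 other genes for hnRNPs and RNA-binding partners, chosen with earlier results known, gave 55 tested events in 28 genes. None was called in limma, with 6 at unadjusted p below 0.05 and a lowest adjusted p of 0.0974, and 3 had an authors' FDR below 0.05 in the authors' deposited table. The median PSI difference of the list was -0.00250. No test compared the members with the list.

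Coverage, the reads of a gene's deepest event, was lower in the 3-library set for 5 of the 9 member genes measured and higher for 0. Of all 8201 genes tested 22.7% were called, 9.47% as lower and 13.2% as higher, on log2 CPM in limma with Benjamini-Hochberg adjustment. Coverage combines transcript level with the choice of event, and in bulk tissue fewer cells of a type and less RNA per cell cannot be told apart. Of the whole table, 23.8% of genes had sets that did not overlap with the 3-library set lower, and 5 of the 9 members did.

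The steepest difference was that of Hnrnpll, with 51.6, 72.4 and 68.8 CPM in the 3-library set, against 101 and 96.3 CPM in the 2-library set. Its log2 difference was -0.63 ± 0.16 (SE; adjusted p = 0.0117, limma). Its paralog Hnrnpl had 151, 173 and 154 CPM in the 3-library set, against 242 and 191 CPM in the 2-library set, a log2 difference of -0.44 ± 0.12 (SE; adjusted p = 0.0190, limma). For both paralogs each library of the 3-library set lay below each of the 2-library set.

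Hnrnpdl had 215, 205 and 188 CPM in the 3-library set, against 273 and 264 CPM in the 2-library set (log2 difference -0.41 ± 0.10, SE; adjusted p = 0.00892, limma). Hnrnpa2b1, among the most deeply covered members, had 1063, 1127 and 1093 CPM in the 3-library set, against 1383 and 1423 CPM in the 2-library set (-0.36 ± 0.07, SE; adjusted p = 0.00288, limma). Hnrnpa1 stood at 234, 296 and 290.2 CPM against 351 and 334 CPM (-0.33 ± 0.11, SE; adjusted p = 0.0470, limma). These sets did not overlap either. The calls of Hnrnpa2b1, Hnrnpdl and Hnrnpll held without any 1 library. Those of Hnrnpa1 and Hnrnpl ended with library 1 of the 2-library set omitted (adjusted p = 0.0848 and 0.158), or library 1 (0.157 and 0.0607) or library 3 (0.0631 and 0.0616) of the 3-library set, and that of Hnrnpa1 also when libraries were scaled by all reads (0.0851).

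The remaining 4 genes did not pass the test. Matr3 had 1091, 1178 and 1136 CPM in the 3-library set, against 1216 and 1110 CPM in the 2-library set, a log2 difference of -0.03 (limma, adjusted p = 0.794). Hnrnph1 had 262, 299 and 312 CPM against 341 and 285 CPM (-0.10; adjusted p = 0.543, limma), and Hnrnpd 199, 197 and 242 CPM against 232 and 239 CPM (-0.15; adjusted p = 0.359, limma). Hnrnph2, at 121, 104 and 109 CPM against 153 and 114 CPM (-0.25; adjusted p = 0.232, limma), was called lower with library 2 of the 2-library set omitted (adjusted p = 0.0178). The Matr3 exon thus differed in inclusion while the coverage of Matr3 was not called, and for Hnrnpa2b1, Hnrnpa1 and Hnrnpdl both measures were called. For Hnrnpa1 the deepest event was that of the called 159-nt exon, so both measures come from the same reads and are not separate results. For Hnrnpa2b1 and Hnrnpdl the deepest events were of other exons, of 211 and 169 nt.

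**Figure D2:**
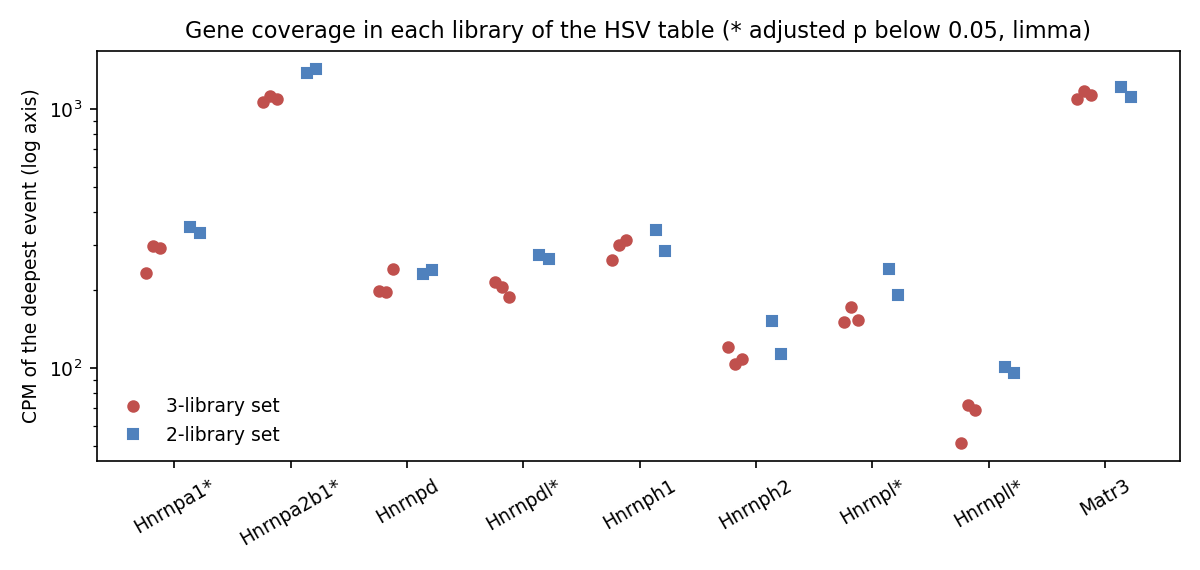
Coverage of the 9 member genes in the HSV table, in CPM of the deepest event of the gene on a log axis; each point is 1 library, circles the 3-library set and squares the 2-library set, and an asterisk marks an adjusted p below 0.05 in limma. For the 5 marked genes every circle lies below both squares, while the Matr3 circles, at 1091 to 1178 CPM, overlap its squares, at 1110 and 1216 CPM.

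All 9 log2 differences were negative, with a median of -0.33, against 0.00054 over all genes tested; that of Matr3 was 0.01 when libraries were scaled by all reads and 0.03 with library 1 of the 2-library set omitted, and that of Hnrnph1 was 0.03 with the same library omitted. The related list had 36 genes with coverage, with a median log2 difference of -0.13. Of these 36 genes 6 were called, where 22.7% of all genes tested were. The 4 called lower included Khdrbs3, Pcbp3 and Hnrnpm, and the 2 called higher were Rbm3 and Msi2.

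In the dCas9-SET2 table, the authors' deposited table called 6 of the 24 member events at an adjusted p (padj) below 0.05, where it called 4.96% of 5287 events, 2.23% as higher in the second set and 2.72% as lower. Exons of Hnrnpa2b1, Hnrnpd (a pair of overlapping exons), Hnrnpc and Hnrnpl were higher in the second set, and 1 of Hnrnpll was lower. The authors' padj includes the repeated run, and its effect on padj was not tested. Below, the inclusion level of a set comes from the reads summed over the 15 distinct runs, with a 95% Wilson interval that covers counting error only; the padj is the authors', and runs of 1 sample name are not independent.

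Hnrnpa2b1 had the most reads of the called events. Its 120-nt exon (chr6:51464428-51464547, minus strand) was included at 0.904 (0.888 to 0.919) in the second set and at 0.879 (0.865 to 0.891) in the first set. Over the runs the lowest, median and highest levels were 0.861, 0.908 and 1 in the second set and 0.834, 0.882 and 0.950 in the first set. The runs of the sets overlap over most of their range, and the intervals of the summed reads overlap slightly. In the authors' deposited table padj was 0.00785, with a mean difference (dPSI) of 0.0298.

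The 107-nt exon of Hnrnpd (chr5:99962098-99962204, minus strand) rested on 30 inclusion and 126 skipping reads in the second set and on 14 and 187 in the first set. Its inclusion was 0.103 (0.0715 to 0.145) in the second set, against 0.0347 (0.0206 to 0.0580) in the first set, and the authors' deposited table gives a dPSI of 0.0693 with padj of 0.0245. These intervals do not overlap. The 71-nt form that overlaps it and shares its skipping reads stood at 0.104 in the second set and 0.0331 in the first set (padj of 0.0337 in the authors' deposited table). These are 2 readings of mostly the same reads, not independent results. The isoform exons of Hnrnpd were not called: the 147-nt exon was at 0.752 in the second set and 0.700 in the first set (padj 0.0542) and the 57-nt exon at 0.835 and 0.802 (padj 0.425).

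Hnrnpc encodes a protein that binds runs of U and, in human cells, keeps cryptic exons out of mRNA. Its 229-nt exon (chr14:52098316-52098544, minus strand) was included at 0.250 (0.214 to 0.289) in the second set and at 0.177 (0.154 to 0.204) in the first set, with run medians of 0.253 in the second set and 0.203 in the first set; the intervals do not overlap. In the authors' deposited table its padj was 0.0390 and its dPSI 0.0832. The other 3 Hnrnpc events, exons of 26, 530 and 1223 nt, overlap in position with it or with each other and share skipping reads. Their levels were 0.723, 0.440 and 0.309 in the second set and 0.703, 0.348 and 0.219 in the first set, and none was called.

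The called exon of Hnrnpll, 83 nt (chr17:80044940-80045022, minus strand), had 7 inclusion and 65 skipping reads in the second set and 22 and 78 in the first set. Inclusion was 0.0553 (0.0266 to 0.111) in the second set and 0.133 (0.0876 to 0.197) in the first set; the intervals overlap. The authors' deposited table gives a dPSI of -0.111 and padj of 0.0458. It was the one called member exon with under 5 reads per run in a set, at 4.80 in the second set.

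The 497-nt exon of Hnrnpl (chr7:28810672-28811168, plus strand) had the largest authors' dPSI of the called member exons, 0.324, with padj of 0.0263 in the authors' deposited table. The summed reads gave a smaller difference of 0.0819, from 0.672 (0.477 to 0.822) in the second set against 0.590 (0.479 to 0.693) in the first set. Skipping reads numbered 6 in the second set and 21 in the first set, the median run was at 1 in the second set and 0.519 in the first set, and 1 second-set run had no read. The intervals overlap over most of their width, so at this depth the summed reads do not separate the sets.

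The start of this Hnrnpl exon is shown because a RefSeq transcription start lies inside the exon, at base 28810890 of chromosome 7, with 218 exon bases before it and 279 from it on. The RefSeq promoter table (GRCm38.p6) holds the following stretch at chr7:28810640-28810739, plus strand, 5′ to 3′; the 68 capitals are the first bases of the exon and the lower case the 32 bases before it.
Hnrnpl: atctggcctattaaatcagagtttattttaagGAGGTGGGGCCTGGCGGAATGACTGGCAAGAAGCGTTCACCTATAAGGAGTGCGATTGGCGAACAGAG
The last bases before the exon are AG, the usual end of an intron, and 9 of the 20 bases before the exon are pyrimidines. Reads of transcripts that begin inside the exon cannot be told apart from reads of transcripts that include it, since reads in the exon body count toward inclusion. A RefSeq start inside the exon occurred in 32 of the 4507 events of the dCas9-SET2 table with an entry in the promoter table (0.710%), and in 1 of the 19 such member events.

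**Figure D3:**
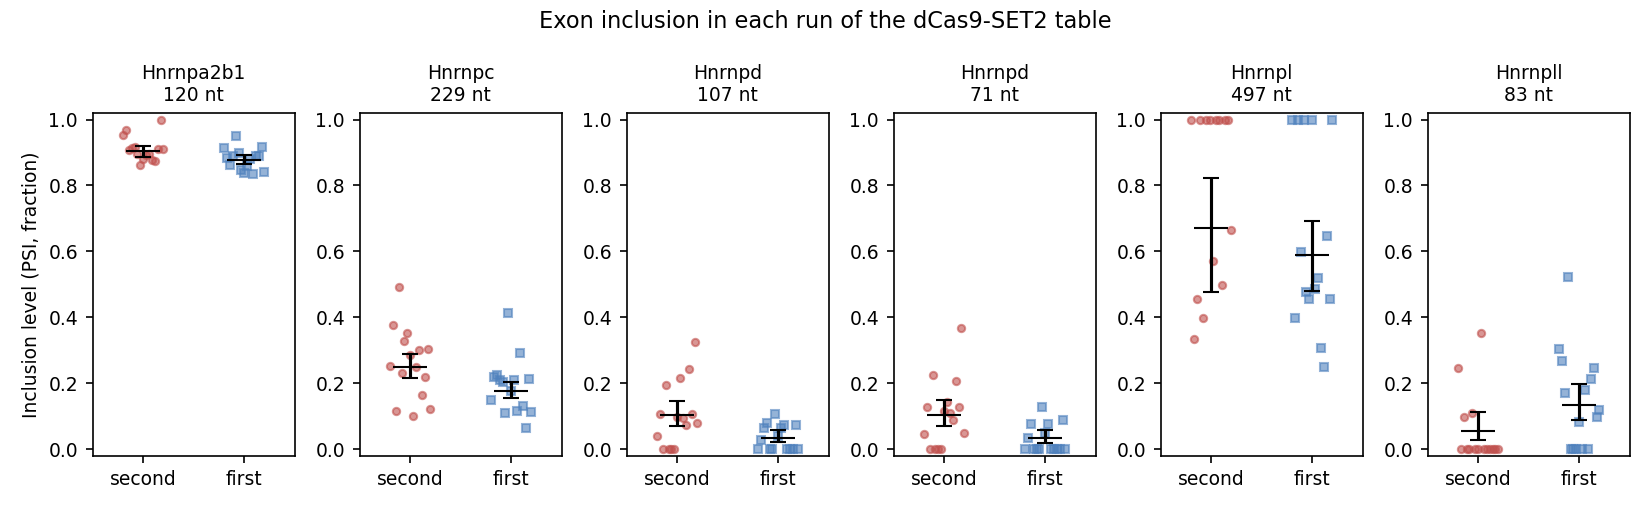
Inclusion level (PSI, as a fraction) of the 6 member exons called in the authors' deposited dCas9-SET2 table; points are the 15 distinct runs of each set that have a read (circles second set, squares first set), and black bars are the level from summed reads with its 95% Wilson interval. The runs overlap between the sets for each exon, and for Hnrnpl many runs stand at 1.

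The A2/B1 choice of Hnrnpa2b1, a 36-nt exon whose inclusion makes the B1 protein, was at 0.0483 (0.0375 to 0.0619) in the second set and at 0.0631 (0.0525 to 0.0756) in the first set, with padj of 0.482 in the authors' deposited table. The B1 form was thus the minor one in both sets. Hnrnpa1 kept its 159-nt exon at 0.109 and 0.0958 in the second and first set (padj 0.331), and Hnrnpdl its 105-nt exon at 0.222 and 0.183 (padj 0.685). The 50-nt exon of Hnrnph1 and the 45-nt exon of Hnrnph2 were at 0.893 and 0.737 in the second set and at 0.896 and 0.688 in the first set (padj 0.482 and 0.465). The 1093-nt exon of Matr3, listed with different neighbouring exons in 2 events, was at 0.987 and 0.978 in the second set and at 0.988 and 0.977 in the first set (padj 0.749 and 0.0787).

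The 18 member events not called had padj from 0.0542 to 1. The authors' dPSI was above 0 for 18 of the 24 member events, with a median of 0.0194, where 45.9% of all events were above 0 and the median was -0.00369. Several of these events share reads, as in Hnrnpc and Hnrnpd, so the 24 are not independent. With 5 reads per run required in both sets, 5 of 22 member events were called, where 5.61% of all such events were. In the related list 3 of 40 events, in 24 genes, were called. Among them were a 63-nt exon of Fubp1 (0.195 in the second set, 0.0629 in the first set; padj 0.00895) and a 39-nt exon of Pcbp2 (0.966 in the second set, 0.935 in the first set; padj 0.0262), both in the authors' deposited table.

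Read coverage in this table, in CPM of all reads of the table, is given with no test. Hnrnph2 had 271 in the second set and 209 in the first set, a log2 ratio of 0.38, Hnrnpa2b1 2605 and 3148, a log2 ratio of -0.27, and Matr3 3657 and 4379, a log2 ratio of -0.26. The other members lay between -0.08 and 0.11. These ratios lie inside the range from the 5th to the 95th percentile of the 632 genes with 20 reads per run, -0.38 to 0.41.

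Exons of the members were matched between the tables by gene and exon length, without converting coordinates. This gave 13 exons in 8 genes, each with an event whose distances to both neighbouring exons were the same in both tables. For the 1093-nt exon of Matr3, the level compared came from its other event, with 1 neighbour at the same distance. Their mean inclusion lay within 0.1 between the tables for 11 of the 13, and the largest gap was 0.119, for the 497-nt exon of Hnrnpl; the other exception was the 159-nt exon of Hnrnpa1. The 120-nt exon of Hnrnpa2b1 was the 1 matched exon called in both tables. It was lower in the 3-library set of the HSV table and higher in the second set of the dCas9-SET2 table, and since the sets are unnamed these directions cannot be compared. The rarely used exons of Hnrnpd, called in the dCas9-SET2 table, were not called in the HSV table, whose libraries were deeper, and the difference between tables was not tested.

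**Figure D4:**
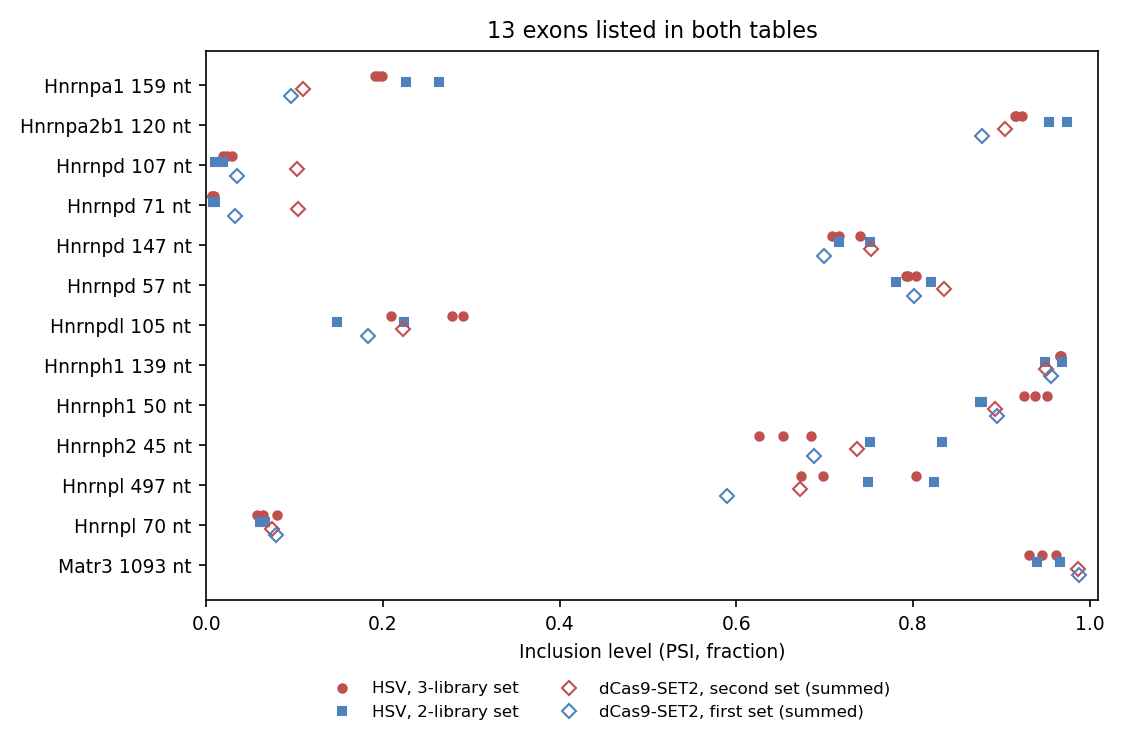
Inclusion level (PSI, as a fraction) of the 13 member exons found in both tables; filled symbols are single libraries of the HSV table (circles 3-library set, squares 2-library set) and open diamonds the summed reads of the dCas9-SET2 table (red second set, blue first set). Exons that were mostly kept or mostly skipped in one table were so in the other, with Hnrnpl 497 nt the furthest apart at 0.119.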

How the data were processed

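Exon skipping tables of mouse nucleus accumbens RNA were used as deposited. Per the submitters' processing notes, the series used STAR 2.4.1d and Bowtie2, and names mm9 as well as mm10, with no role for either; the sources used here do not name the event caller. The counts stand joined in cells, so 37 columns of values carry no sample, and sets were compared as each table defines them. In the HSV table, inclusion levels recomputed from the deposited counts and form lengths matched in 100% of values within 0.001. The dCas9-SET2 table gives no form lengths, and a skipping form length of 99 nt was inferred from its deposited inclusion levels. With that length 100% of its values also matched within 0.001, which is not an independent check because the length came from the same levels. Per the file headers, the authors give a p-value and FDR per event (HSV table) and an adjusted p-value, padj, with a difference score, dPSI (dCas9-SET2 table). The HSV difference score deposited by the authors runs from the 3-library to the 2-library set, the other way round from the differences here. The authors' dPSI equalled the mean difference of same-position runs after dropping differences over 1 SD from that mean, in 91.3% of events within 0.0001. Runs without a read entered this rebuilding as full skipping, so dPSI of events with few reads does not rest on observed levels only.

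Member genes, lists and tests were chosen with earlier results of these data known. Every member gene was named, with each event tested or called; called events of the related list and the 3 nearest events of each called member were named too, except for results that are not reported here. For the HSV test, an event had to average 20 reads per library and have 10 reads of its rarer form; 0.5 was added to each count before the logit, and reads gave the weights. Coverage took genes with a mean of 20 reads, TMM scaling (trims 0.3 and 0.05) and 0.5 added, with a spread trended on coverage; this understates fold changes at few reads. Both fits used limma 3.58.1 in R 4.3.3, two-sided, and were tested on simulated data. Reads of the median event were 102 per library (HSV table) and, in the dCas9-SET2 table, 4 reads per run in the second set and 5.47 in the first set. Intervals cover counting error only. Of the dCas9-SET2 exons 99.8% fell within the GRCm38 gene, and of the HSV exons 13.1%, so coordinates are printed 1-based as each table gives them and none was converted. Alternatives changed the weights, spread, filters, added counts, scaling and libraries. Chromatin samples were not analysed here.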

Additional observations from a re-analysis of the deposited data

How the results depend on the processing

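No paired analysis was possible because the columns carry no replicate numbers; the authors' dPSI itself takes differences between runs at the same position, and the sources used here do not say whether position pairs samples. Without weights limma called 0 events over the HSV table and 0 member events, higher or lower, and the authors' FDR called 974 events against 286. With any 1 library left out, 150 to 236 events were called, of them 2 to 6 member events (2 to 3 higher, 0 to 3 lower); the fewest events and member events came with library 1 of the 2-library set omitted. Coverage calls ran from 1334 to 2088 genes and from 3 to 6 member genes in the same fits. Where 1 library of the 2-library set was left, it was assumed to vary like the other set. A minimum of 5 reads per run left 134 called events of 262 in the dCas9-SET2 table. The difference of the Hnrnpl 497-nt exon was 0.0930 in summed reads of all runs and 0.0819 with the identical run counted once, an alternative chosen after seeing the data, against a dPSI of 0.324. The cause of these shifts was not tested. Single member events and genes were rated as unchanged in 264 settings, lost the call in 23, gained it in 1 and changed sign in 13. In 2 more, both of the Hnrnpl 497-nt exon, the size of the difference moved. The settings of the dCas9-SET2 table hold a difference in inclusion and no p-value, so for them no side of a threshold was checked. For the authors' FDR of the HSV table the call was compared and the direction was not. The sign changes were all in 7 events and 2 genes that were not called, and none of these was called in any setting: with 1 library left out, the adjusted p in limma ran from 0.908 to 0.9995 for the Hnrnpd 71-nt exon, 0.752 to 0.965 for its 147-nt exon, 0.803 to 0.989 for its 57-nt exon, 0.722 to 0.967 for the Hnrnph1 139-nt exon, 0.839 to 0.997 for the Hnrnpl 70-nt exon, 0.651 to 0.986 for the Matr3 1093-nt exon and 0.687 to 0.979 for its 223-nt exon, and from 0.125 to 0.912 for Hnrnph1 coverage and 0.364 to 0.915 for Matr3 coverage. The Matr3 223-nt exon also changed sign without weights (0.899) and Matr3 coverage when scaled by all reads (0.921). In the dCas9-SET2 table, differences in rarely used exons rest on few reads.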
